A study of Mus musculus with 6 samples.

Results

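Proteoglycans and hyaluronan form the hydrated ground substance of the infarcted heart. The 10 genes described here were chosen by symbol: the hyaluronan synthases Has1 and Has2, the hyaluronan receptor Cd44, the large proteoglycan Vcan (versican), and the small leucine-rich proteoglycans Bgn (biglycan), Dcn (decorin), Lum (lumican), Fmod (fibromodulin), Ogn (osteoglycin) and Prelp. They are 10 of 36047 genes in the files, and 10 of 10 were among the 20094 genes with enough counts to be tested. Of these members 10 had at least 13 counts in every library.

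Expression was measured by RNA sequencing of the infarct area of female C57BL/6 mice 48 h after ischemia/reperfusion, in which the left anterior descending coronary artery was tied off and then reopened. Mice of the LGK-974 group (n = 3) received 3 mg/kg of this inhibitor of Porcupine, the enzyme that Wnt proteins need for their release, by gavage after surgery and then daily. Mice of the DMSO group (n = 3) received only the DMSO vehicle in citrate buffer. Mice of both groups had the same injury, were labelled as 12 weeks old, and gave 1 library each, and there was no uninjured group.

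Hyaluronan is a long sugar chain without a protein core that is spun out through the plasma membrane by its synthases, and Cd44 binds it on leukocytes and fibroblasts. Versican is a chondroitin sulfate proteoglycan whose head binds hyaluronan, and it is known from provisional matrix of young wounds. Small leucine-rich proteoglycans coat collagen fibrils and steer their assembly, and biglycan and decorin are also known to bind TGF-beta.

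Versican and Cd44 messages differ in which exons they hold, and the joints that tell the annotated transcripts apart are printed here because the transcript results rest on these forms. In Vcan, 2 large exons code for the stretches to which the chondroitin sulfate chains are attached, called GAG-alpha (chr13:89702918-89705797, 2880 bases) and GAG-beta (chr13:89688285-89693501, 5217 bases; GRCm38, minus strand). Vcan-203 holds both, Vcan-206 holds GAG-beta only, and Vcan-201 holds neither. Each line gives the last 15 bases of the shared exon in lower case and the first 15 bases of the next exon in capitals, 5′ to 3′, from the GENCODE transcripts of GRCm38.
Vcan-203: cctactgctttaaacCTAAACAGAATATAT
Vcan-206: cctactgctttaaacGTCGATTGAGTGATA
Vcan-201: cctactgctttaaacGACCTGATCTCTGCA

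Cd44 has 9 constant coding exons and 10 variable exons, v1 to v10, which code for 1245 bases of the stalk of the receptor. Cd44-203 holds no variable exon and is the standard form of leukocytes and fibroblasts, Cd44-201 holds v1 to v10, Cd44-207 holds v5, v6, v8, v9 and v10, and Cd44-206 holds v10 only. The constant exon before the joint ends at position 102853015 of chromosome 2 (GRCm38, minus strand), and the next exon begins at 102828610 in Cd44-203, at 102848782 in Cd44-201, at 102842377 in Cd44-207 and at 102831536 in Cd44-206.
Cd44-203: gcaccttggccaccaGAGATCGAGACTCAT
Cd44-201: gcaccttggccaccaTTGCCTCAACTGTGC
Cd44-207: gcaccttggccaccaATATAGACAGAATCA
Cd44-206: gcaccttggccaccaCTAAGAGCGGCGCTA

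Depth was 41579787 to 80398211 estimated counts per library, of which mitochondrial genes held 28.2 to 53.7% with LGK-974 and 39.3 to 42.8% with DMSO. DMSO replicate 1 stood apart in its counts on receptor families that the heart is not known to use (Olfr, Vmn1r, Vmn2r and Tas2r genes). Of 1780 such genes 98.9% had counts in DMSO replicate 1 and 53.0 to 82.8% in the other libraries. Per kb of the median transcript length of each gene, their median was 35.7 counts in DMSO replicate 1 and 1.02 to 12.0 in the others. Several values are therefore also given without this library. Libraries were compared as CPM (counts scaled to library size by the TMM method) with edgeR's quasi-likelihood test. At an adjusted p-value of 0.05, 0 of 20094 genes passed by edgeR (0.0%), with 2699 at an unadjusted p under 0.05 (13.4%) and 289 of 23567 genes passed by DESeq2 (1.23%).

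The levels of the 10 genes spanned from abundant fibril-coating proteoglycans to messages near the lower limit. Per length, as TPM averaged over the 6 libraries, Bgn (322) and Dcn (198) led, followed by Ogn (22.4), Cd44 (18.7), Vcan (17.1), Prelp (14.4), Lum (10.7), Has2 (1.32), Has1 (1.01) and Fmod (0.479). Dcn was above Ogn, Lum above Has2 and Has1 above Fmod in 6 of 6 libraries. Neighbours elsewhere in this order changed places between libraries: Cd44 was above Vcan in 3 of 6, and Bgn above Dcn, Ogn above Cd44, Vcan above Prelp and Has2 above Has1 in 4 of 6.

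**Figure D1:**
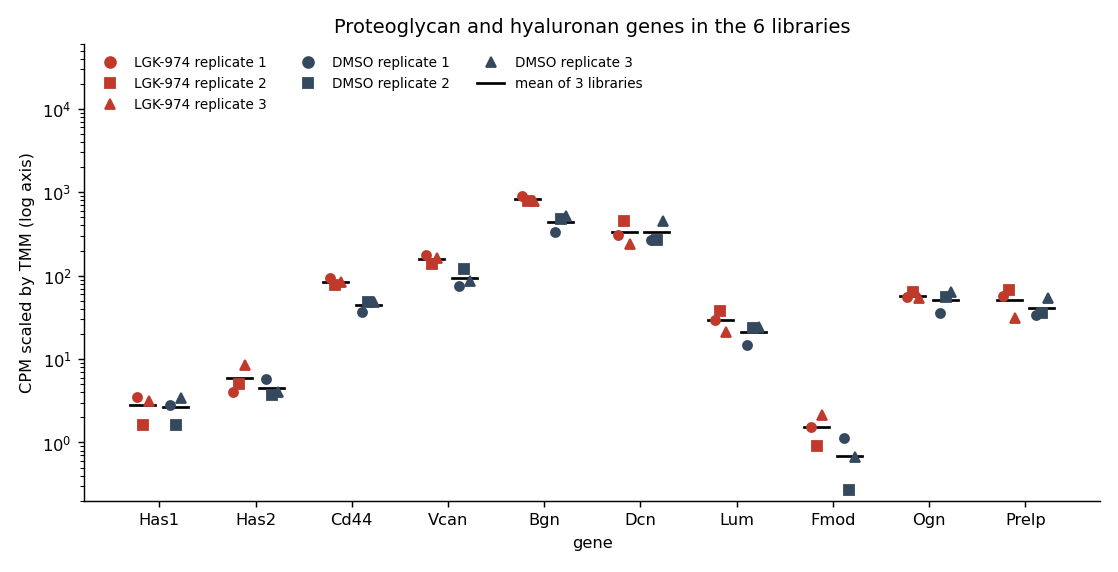
CPM scaled by TMM (log axis) of the 10 genes in each library, with red symbols for LGK-974, dark symbols for DMSO, a symbol shape per replicate number and a bar for the mean of 3 libraries. For Cd44, Vcan and Bgn the red and dark symbols do not overlap, while for the other 7 genes they do.

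In CPM, Cd44, Bgn and Vcan were higher in every LGK-974 library than in every DMSO library, by 1.71 to 1.88 times. For Vcan this held only with the TMM scaling. Of the members, 0 of 10 passed the adjusted threshold of edgeR. In bulk tissue such as this, more cells of a type and more RNA per cell cannot be told apart. Of the tested genes, 10.7% lay above in the same way, against 3 of 10 members. Below in the same way lay 7.27% of genes and 0 of 10 members. The same 3 members had an unadjusted p under 0.05, as did 6.26% of all tested genes in this direction and 7.18% in the other. DESeq2 called Cd44 and Bgn, and 0.853% of its genes in this direction. The log2 fold change was above 0 in 10 of 10 members and in 40.5% of all tested genes, with medians of 0.45 and −0.13. Without DMSO replicate 1 it was above 0 in 8 of 10 members and in 47.9% of all genes, with medians of 0.47 and −0.02, and 4 members had an unadjusted p under 0.05 (7.12% of all genes in this direction), while 0.0108% of all genes and 0 members passed the adjusted threshold.

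Macrophage markers and some of the fibroblast markers, led by collagens, differed between the groups in the same direction as these 3 members. Of 12 macrophage markers 12 had a log2 fold change above 0 (median 0.99), against 40.5% of all tested genes. Every LGK-974 library was above every DMSO library for 11 of them, as for 10.7% of all tested genes. Their summed level was 509 to 655 CPM with LGK-974 and 224 to 328 with DMSO. The defining markers Cd68 and Adgre1 were at 1.06 and 0.88. Of 13 fibroblast markers 10 were above 0 and 5 did not overlap, with sums of 3183 to 5384 and 1652 to 2519 CPM, led by the collagens Col1a1, Col1a2 and Col3a1 (1.12, 1.07 and 1.14), while Pdgfra, which defines cardiac fibroblasts, was at 0.13 with overlapping groups. No marker of these 2 lists was at 0 in any library. By edgeR 0 markers of the 2 lists passed the adjusted threshold, and by DESeq2 8 and 4 did, against 1.23% of all genes. DMSO replicate 1 had the lowest sum of both lists. Without it, 12 macrophage and 11 fibroblast markers were above 0 (medians 0.88 and 0.29), against 47.9% of all genes. By edgeR 11 and 4 of them were then higher at an unadjusted p under 0.05, against 7.12% of all genes. Pdgfra was then at 0.01. Their part in the values of Cd44, Vcan and Bgn was not tested.

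Of 12 cardiomyocyte markers 11 were below 0 (median −0.43), while 40.5% of all tested genes were above 0. Their sums overlapped (42289 to 59396 CPM with LGK-974 and 47565 to 65946 with DMSO). These markers of the labelled heart tissue were abundant in every library. The sums of endothelial (9 genes), mural (9), neutrophil (8) and mesothelial markers (8) overlapped between the groups. The neutrophil-defining Ly6g was at 0 in 3 of the 6 libraries and was not tested.

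The hyaluronan synthases were at low levels with overlapping groups. Has1 was at 3.52, 1.64 and 3.18 CPM in LGK-974 replicates 1, 2 and 3 and at 2.84, 1.63 and 3.41 in DMSO replicates 1, 2 and 3. Replicate 2 was the lowest library in both groups, and the log2 fold change was 0.08 (standard error 0.431, 95% interval −0.92 to 1.08). Has2, the synthase known from heart valve development, was at 4.06, 4.96 and 8.61 CPM with LGK-974 and at 5.71, 3.68 and 4.0 with DMSO. LGK-974 replicate 3 was the highest and the other libraries were mixed, with a log2 fold change of 0.40 (standard error 0.343, interval −0.40 to 1.19). The difference of Has2 was 0.62 without DMSO replicate 1 and 0.09 without LGK-974 replicate 3.

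Has1, Has2 and Fmod were close to the level of the receptor families in some libraries. Counts of members were divided by all annotated exon bases of the gene, and those of receptor genes by their median transcript length. The first length is never the shorter, so members read low beside the receptor families. In DMSO replicate 1, Has1 had 25.0 counts per kb of exon and Fmod 13.6, both under the 35.7 of the receptor families, and Has2 had 53.6. In DMSO replicate 2, Fmod was at 3.93 counts per kb, under the 12.0 of these families. In LGK-974 replicate 3, the library with the fewest counts on them (1.02 per kb), Has1, Has2 and Fmod had 44.9, 129.8 and 41.4. The other 7 members were at 205 counts per kb or more in every library. How far these receptor counts entered the values of the 3 low genes was not tested.

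**Figure D2:**
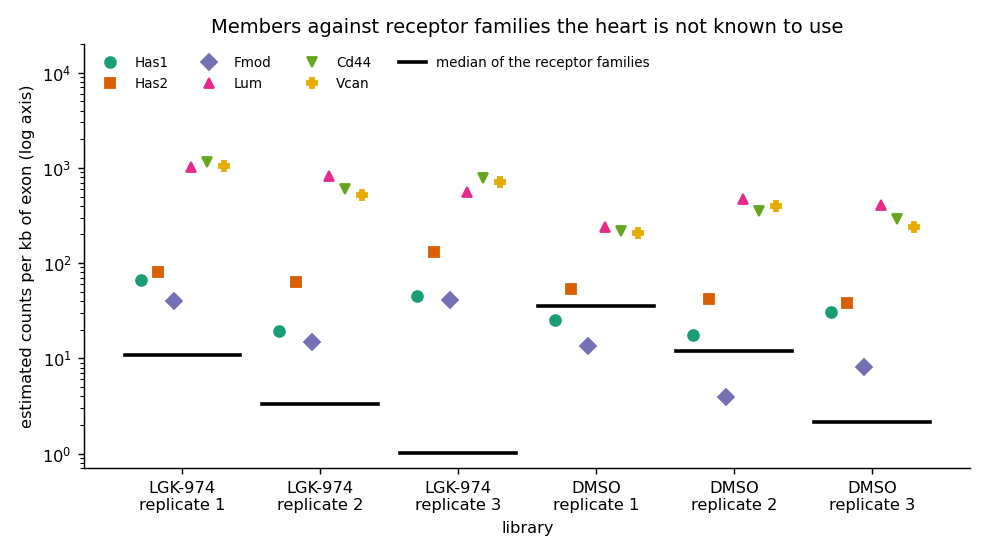
Estimated counts per kb of exon (log axis) of 6 of the 10 genes in each library. A black bar marks the median of 1780 receptor genes, whose counts are per kb of median transcript length, a length that cannot exceed all exon bases. In DMSO replicate 1 the bar (35.7) lies above Has1 (25.0) and Fmod (13.6), while Lum, Cd44 and Vcan lie well above the bar in every library.

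Cd44, the main receptor for hyaluronan, showed the smallest p-value of the 10 genes. It was at 93.0, 76.3 and 83.8 CPM in the LGK-974 libraries and at 36.7, 48.9 and 48.8 in the DMSO libraries. The lowest LGK-974 library was above the highest DMSO library by a wide margin, and DMSO replicate 1 was the lowest of all. The means were 84.4 ± 8.36 and 44.8 ± 7.0 CPM (SD, n = 3 each). The log2 fold change was 0.91 (standard error 0.178, interval 0.50 to 1.33), with an unadjusted p of 0.000989 and an adjusted p of 0.368 in edgeR's quasi-likelihood test and an adjusted p of 0.00591 in DESeq2. Its unadjusted p ranked 45 among 20094 genes, and the difference was 0.81 without DMSO replicate 1.

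Vcan, which builds hyaluronan-rich provisional matrix, was at 177, 139.9 and 161 CPM with LGK-974 and at 74.4, 119 and 85.7 with DMSO. Every LGK-974 library was above every DMSO library, with the closest approach between LGK-974 replicate 2 and DMSO replicate 2. The means were 159 ± 18.5 and 93.1 ± 23.2 CPM (SD, n = 3 each). On the log2 scale this is a difference of 0.77 (standard error 0.219, interval 0.27 to 1.28). By edgeR's test the unadjusted p was 0.00815 and the adjusted p 0.368, and by DESeq2 the adjusted p was 0.0503. On the deposited TPM scale, which is not rescaled between libraries, the groups overlapped, because LGK-974 replicate 2 (12.8 TPM) was below DMSO replicate 2 (15.02 TPM). Without DMSO replicate 1 the log2 fold change of Vcan was 0.66.

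Bgn, the most abundant of the 10 messages per length, was at 900.1, 783 and 781 CPM with LGK-974 and at 338, 478 and 520.3 with DMSO. The groups were apart, and DMSO replicate 1 was again the lowest library. The means were 821 ± 68.2 and 445 ± 95.2 CPM (SD, n = 3 each). The log2 fold change was 0.88 (standard error 0.239, interval 0.33 to 1.44), with an unadjusted p of 0.00641 and an adjusted p of 0.368 by edgeR and an adjusted p of 0.0112 by DESeq2. It was 0.74 without DMSO replicate 1. The transcript Bgn-201 held 79.4 to 93.6% of the TPM of the gene, so that the gene value was mainly that of 1 transcript.

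Dcn, the closest relative of Bgn, was at 308, 451 and 237 CPM with LGK-974 and at 271, 269.7 and 452 with DMSO. The highest libraries of the groups were level, the lowest was an LGK-974 library, and the means were 332 ± 109 and 331 ± 105 CPM (SD, n = 3 each). Its log2 fold change was 0.01 (standard error 0.316, interval −0.73 to 0.74), an interval that leaves room for a difference in either direction. The sign changed without DMSO replicate 1, to −0.11. The groups of Bgn were thus apart where those of Dcn overlapped.

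Ratios between 2 members within a library did not overlap between the groups for 5 of 45 pairs, against 18.0% of single genes whose groups did not overlap. The pairs share genes and were singled out after their values were seen, so no test is given. The ratio of Bgn to Dcn in TPM was 2.44, 1.46 and 2.47 with LGK-974 and 0.898, 1.35 and 0.895 with DMSO. Every LGK-974 library had the higher ratio, with replicate 2 of each group closest to the other, and the mean log2 ratios differed by 1.01. Bgn was also higher relative to Ogn, at 20.8, 15.7 and 16.6 with LGK-974 and 10.4, 10.2 and 9.70 with DMSO, and relative to Lum, at 36.7, 25.4 and 39.3 against 24.4, 22.4 and 23.8. Cd44 was higher relative to Ogn and Dcn lower relative to Prelp in the same sense.

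Lum, Fmod and Prelp, the keratan sulfate branch of the small leucine-rich family, had overlapping groups. Lum was at 29.7, 37.5 and 21.3 CPM with LGK-974 and at 14.6, 23.8 and 24.5 with DMSO. A single LGK-974 library, replicate 3, was below 2 of the DMSO libraries, and the log2 fold change was 0.49 (standard error 0.269, interval −0.13 to 1.12). Prelp, which anchors basement membranes to collagen, was at 57.2, 66.6 and 30.8 CPM with LGK-974 and at 33.6, 35.7 and 53.6 with DMSO. LGK-974 replicate 3 was the lowest of all 6 libraries for Prelp, and its log2 fold change was 0.33 (standard error 0.311, interval −0.39 to 1.05). On the TPM scale the LGK-974 libraries of Lum (11.7 to 15.1) and Prelp (16.7 to 18.2) were above the DMSO libraries (4.24 to 10.4 and 8.38 to 15.9). An overlap of 350 exon bases with Gm15851 on the other strand makes the counts of Prelp less certain.

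Fmod, a regulator of collagen fibril thickness, had the fewest counts of the 10 genes, 49 to 137 with LGK-974 and 13 to 45 with DMSO. It was at 1.55, 0.914 and 2.15 CPM with LGK-974 and at 1.13, 0.269 and 0.663 with DMSO. LGK-974 replicate 2 was below DMSO replicate 1, so the groups overlapped. The log2 fold change of 1.16 was the largest of the 10 members in this fit and had the largest standard error (0.677, interval −0.41 to 2.73). Without DMSO replicate 1, in which Fmod was close to the level of the receptor families, it was 1.74 with an unadjusted p of 0.0223 and an adjusted p of 0.375 by edgeR. Without DMSO replicate 2, the library with the fewest counts of Fmod, it was 0.76 with an unadjusted p of 0.284.

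Ogn, a small leucine-rich protein abundant in adult heart fibroblasts, was at 55.4, 64.0 and 53.3 CPM with LGK-974 and at 36.0, 54.8 and 63.2 with DMSO. Apart from DMSO replicate 1 the libraries were intermixed, and the log2 fold change was 0.16 (standard error 0.224, interval −0.35 to 0.68). Without that library it was −0.02. Across the 10 members, DMSO replicate 1 was the lowest library for 5, DMSO replicate 2 for 3 and LGK-974 replicate 3 for 2.

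**Figure D3:**
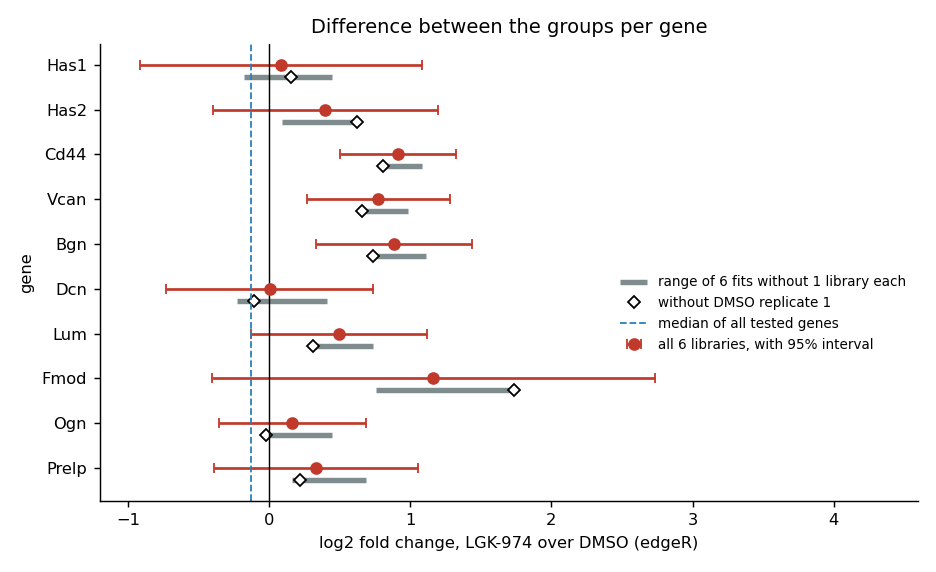
Log2 fold change of each gene (LGK-974 over DMSO, edgeR) with its 95% interval in red, the range over 6 fits that left out 1 library each as a grey bar, and the fit without DMSO replicate 1 as a diamond; the dashed line is the median of all tested genes (−0.13). The intervals of Cd44, Vcan and Bgn lie above 0, and the grey bars of Has1, Dcn and Ogn cross 0.

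The Vcan transcripts with and without the GAG-alpha exon were both higher in every LGK-974 library in CPM. Vcan-203, with both GAG exons, was at 89.9, 65.9 and 79.5 CPM with LGK-974 and at 32.3, 55.5 and 37.6 with DMSO. Vcan-206, with GAG-beta only, was at 89.6, 70.1 and 77.1 CPM with LGK-974 and at 37.7, 58.5 and 47.0 with DMSO. Neither transcript overlapped between the groups in CPM, and replicate 2 of each group was again the closest to the other. In TPM both overlapped: LGK-974 replicate 2 was at 3.76 for Vcan-203 and 6.02 for Vcan-206, and DMSO replicate 2 at 4.19 and 6.65. The log2 fold changes were 0.91 for Vcan-203 (standard error 0.263) and 0.72 for Vcan-206 (standard error 0.227), with unadjusted p-values of 0.0109 and 0.0157 and an adjusted p of 0.849 for both by edgeR over 59297 transcripts. Of all tested transcripts, 0 passed the adjusted threshold by edgeR (0.0%; 5.3% at an unadjusted p under 0.05, and 3.24% higher with LGK-974) and 0.793% passed by DESeq2.

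The balance between these Vcan forms overlapped between the groups in TPM. Vcan-203 made up 39.7 ± 1.14% of the TPM of Vcan-203 and Vcan-206 together in the LGK-974 group and 36.5 ± 2.02% in the DMSO group (SD, n = 3 each). The groups overlapped, and the difference of 3.17 points had a p of 0.2 in an exact two-sided permutation test, which cannot go below 0.1 with 3 against 3. Taken as a share of the estimated counts of the whole gene, however, Vcan-206 was at 48.6, 49.99 and 48.3% with LGK-974 and at 51.8, 50.1 and 54.6% with DMSO. On that scale it was lower in every LGK-974 library, narrowly for replicate 2 of both groups, with a difference of −3.21 points and a p of 0.1 in the exact permutation test, while its share of the TPM of the gene overlapped. Vcan-202, with GAG-alpha only, had less than 1 estimated count in each library. Vcan-201, without either GAG exon, had 3.15, 13.1 and 36.7 estimated counts with LGK-974 and was listed at 0 in the 3 DMSO libraries, where a count of 0 allows up to 3 counts for counting error alone. It was below the limit for testing, while Vcan-203 had 1311 to 7315 counts per library.

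For Cd44, the form without variable exons and 2 forms with them were higher in every LGK-974 library. Cd44-203, without variable exons, was at 29.1, 22.6 and 23.9 CPM with LGK-974 and at 8.30, 16.9 and 14.4 with DMSO. Cd44-201, with v1 to v10, was at 24.3, 28.9 and 26.5 CPM with LGK-974 and at 18.6, 17.2 and 19.1 with DMSO. Cd44-207, with v5, v6, v8, v9 and v10, was at 36.0, 20.2 and 26.2 CPM with LGK-974 and at 5.98, 9.05 and 11.6 with DMSO. The groups were apart for the 3 forms, most widely for Cd44-207. Their log2 fold changes were 0.93 (standard error 0.296), 0.54 (standard error 0.175) and 1.63 (standard error 0.332). Without DMSO replicate 1 these were 0.69, 0.54 and 1.41.

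None of these Cd44 forms passed the adjusted threshold of edgeR, with adjusted p-values of 0.849 for Cd44-203 and Cd44-201 and 0.671 for Cd44-207. DESeq2 gave Cd44-207 an adjusted p of 0.0103. Cd44-206, with v10 only, was at 0.966 to 1.80 CPM with LGK-974 and at 0.358 to 1.01 with DMSO, and its groups overlapped. Of the 9 annotated transcripts of Cd44, 3 were listed at 0 in every library.

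The share of Cd44 held by all forms with variable exons was 49.0 ± 1.25% of TPM in the LGK-974 group and 46.4 ± 8.03% in the DMSO group (SD, n = 3 each), with overlapping groups and a p of 0.8 in the exact permutation test. Cd44-207 alone held 26.8, 19.7 and 22.7% with LGK-974 and 12.6, 13.02 and 17.2% with DMSO. In TPM it was the only one of 7 shares of Vcan and Cd44 forms that did not overlap, and in estimated counts Vcan-206 and Cd44-207 did not. The TPM share of Cd44-207 had a p of 0.1 in the exact permutation test, the smallest possible, and of 0.7 after adjustment over the 7. Cd44-201 held 20.7 ± 4.55% with LGK-974 and 27.5 ± 6.68% with DMSO, with overlapping groups.

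The estimated counts of these forms do not come from the variable exons alone. After the coding sequence, Cd44-207 and Cd44-201 run on for 2995 bases and Cd44-203 for 1589, and no annotated form without variable exons reaches the far end. Reads from that end are therefore assigned to forms with variable exons whether or not such an exon was read. Vcan-203 likewise runs on for 1922 bases and Vcan-206 for 894. Reads over single joints were not analysed here.

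**Figure D4:**
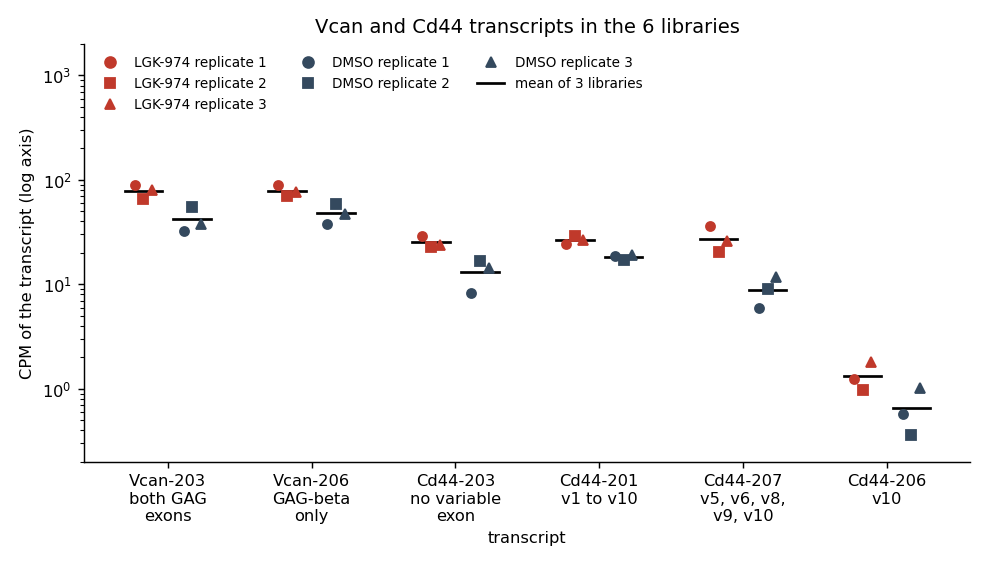
CPM (log axis) of 6 transcripts of Vcan and Cd44 in each library, with red symbols for LGK-974, dark symbols for DMSO and a bar for the mean of 3 libraries. The groups are apart for all but Cd44-206, and the gap between the bars is widest for Cd44-207 (log2 fold change 1.63).

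Several members lie beside relatives in the genome (GRCm38). On chromosome 10, Dcn (97479609 to 97518143) and Lum (97565128 to 97572703) are 46985 bases apart on the plus strand and are followed by Kera and Epyc, which had at most 1.63 CPM in any library. On chromosome 13, Ogn (49608046 to 49624501) follows Ecm2, Aspn and Omd. Aspn (asporin), which binds collagen, was at 56.2, 50.1 and 70.0 CPM with LGK-974 and at 27.2, 36.9 and 33.0 with DMSO. Its groups were apart, by 0.86 on the log2 scale (standard error 0.191, adjusted p 0.368 by edgeR and 0.0210 by DESeq2), while those of Ogn overlapped. Omd, at 1.19 to 1.37 CPM with LGK-974 and 1.63 to 2.97 with DMSO, was lower in every LGK-974 library, as were 7.27% of all tested genes. In TPM its groups overlapped. Its log2 fold change was −0.81 (unadjusted p 0.0849 by edgeR), and −0.53 without DMSO replicate 1. The groups of Ecm2 overlapped.

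Vcan (89655312 to 89742509, minus strand) lies 43660 bases from Hapln1, which codes for the link protein that locks versican onto hyaluronan. Hapln1 was at 2.72, 1.46 and 1.11 CPM with LGK-974 and at 9.65, 4.199 and 3.49 with DMSO. Each LGK-974 library was below each DMSO library, opposite to Vcan, with a log2 difference of −1.71 (standard error 0.508), an unadjusted p of 0.0105 and an adjusted p of 0.368 by edgeR. Without DMSO replicate 1, its highest library, the log2 fold change was −1.09. Prelp (133910304 to 133921414) and Fmod (134037254 to 134048277) lie 115840 bases apart on chromosome 1, with Optc on the other side of Prelp. Optc, a small leucine-rich protein known from the eye, was at 0.754 to 1.49 CPM with LGK-974 and 1.70 to 2.31 with DMSO, and its groups overlapped in TPM. The remaining members stand alone: Cd44 on chromosome 2 (102811141 to 102901665), Has2 on chromosome 15 (56665627 to 56694539), Has1 on chromosome 17 (17843323 to 17855205) and Bgn on chromosome X (73483602 to 73495933). Exons of Has2 share 182 bases with Has2os on the other strand.

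For the genes that supply, build and break down the sugar chains, most log2 fold changes were above 0. Of 10 genes of hyaluronan supply and turnover, which include the hyaluronidases Hyal1, Hyal2 and Hyal3, 10 had a log2 fold change above 0 (median 0.21; 40.5% of all genes). In 2 of these 10 every LGK-974 library was above every DMSO library, as in 10.7% of all genes. These were Ugdh, which makes the UDP-glucuronate that hyaluronan and chondroitin need, at 0.53 (standard error 0.152), and Gfpt1, the entry enzyme of hexosamine synthesis, at 0.50 (standard error 0.168). Hyal2, a hyaluronidase of the cell surface, was at 0.33 with overlapping groups. Of 21 tested genes of the linker and of chondroitin synthesis, 19 were above 0 (median 0.36), and 6 lay higher in every LGK-974 library. Dse and Dsel, the epimerases that turn chondroitin into dermatan sulfate, were at 0.71 and 0.48 on the same scale (standard errors 0.183 and 0.154), and Chst11, a chondroitin sulfotransferase, was at 0.58 (standard error 0.194). By edgeR, 0 of the 31 genes in these lists passed the adjusted threshold, with 5 at an unadjusted p under 0.05, each higher with LGK-974, against 13.4% of all tested genes in either direction and 6.26% in this one. Without DMSO replicate 1, 10 and 18 genes of these lists were above 0.

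Relatives of the members had log2 fold changes on both sides of 0, and 40.5% of all tested genes were above 0. Of 23 cell-surface, basement membrane and secretory proteoglycans, 11 were above 0 and 12 below (median −0.03). Srgn (serglycin), the granule proteoglycan of leukocytes, was at 41.8, 36.3 and 42.0 CPM with LGK-974 and 27.7, 26.5 and 25.6 with DMSO, and Gpc6 and Sdc3 did not overlap either, with log2 fold changes of 0.59, 0.60 and 0.86. In this list 4 genes were higher and 3 lower at an unadjusted p under 0.05 by edgeR, against 6.26% and 7.18% of all tested genes. The 3 lower ones, named after their values were seen, were the testicans, which are secreted proteoglycans. Spock2 was at 13.4, 12.99 and 3.30 CPM with LGK-974 and at 20.1, 20.2 and 26.7 with DMSO, so that every LGK-974 library was below every DMSO library, with a log2 fold change of −1.17. Spock1 and Spock3 were at −2.58 and −1.78 with overlapping groups. The 3 testicans Spock1, Spock2 and Spock3 were at −1.41, −1.225 and −0.78 without DMSO replicate 1. Their unadjusted p-values by edgeR were then 0.131, 0.0364 and 0.168, so that only Spock2 stayed under 0.05. Of 12 other small leucine-rich proteins 3 were above 0 (median −0.75), among them Aspn and Tsku (0.86 each), while Nyx was at −1.08 with overlapping groups. In this list Kera, Epyc, Omd, Optc, Chad, Chadl and Podnl1 had at most 2.97 CPM in any library. Its median thus rests largely on genes with few counts. Nyx was at 12.9 CPM in DMSO replicate 1 and at 2.66 to 4.53 in the other libraries. The 3 other lecticans Ncan, Acan and Bcan were under 5 CPM in each library with log2 fold changes of −1.03, −0.65 and −0.03. Of 7 proteases known to cut versican, 4 were above 0 and 0 had groups apart, against 18.0% of all tested genes with groups apart. Adamts8, Adamts4 and Adamts20 were at 1.12, 0.45 and −1.02 (1.82, 0.45 and −0.11 without DMSO replicate 1).

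Of 16 tested hyaluronan-binding genes 7 were above 0 (median −0.32; 40.5% of all genes). Beside Hapln1, Stab1, a scavenger receptor of macrophages and sinusoidal endothelium, was at 0.70 (standard error 0.25), and Layn, a hyaluronan receptor, at 0.55 (standard error 0.212), both higher in every LGK-974 library. Without DMSO replicate 1 the median of this list was 0.42 over 14 tested genes, that of the small leucine-rich proteins −0.27, and Nyx, Ncan, Acan and Bcan were at −0.27, −0.12, −0.15 and 0.28. The negative medians of these lists shrank in size or turned without DMSO replicate 1, and that of all tested genes went from −0.13 to −0.02. For the cell-surface, basement membrane and secretory proteoglycans the median went from −0.03 to −0.08, and for the versican proteases from 0.03 to −0.04.

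**Figure D5:**
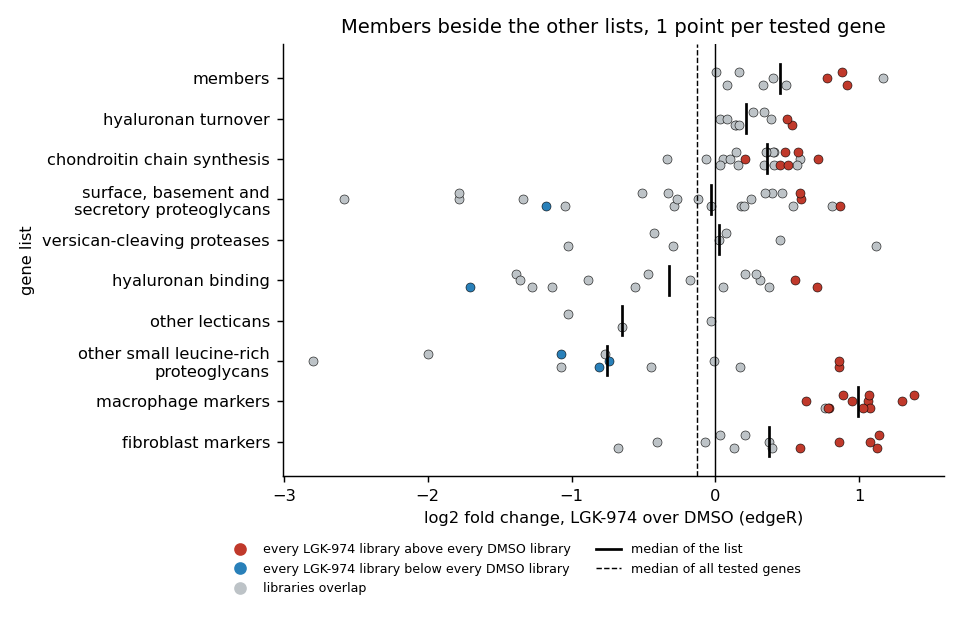
Log2 fold change of each tested gene (LGK-974 over DMSO, edgeR), 1 row per list, with red points where every LGK-974 library was above every DMSO library, blue points where every one was below, a bar for the median of the list and a dashed line for the median of all tested genes (−0.13). The members have a median of 0.45 and macrophage markers one of 0.99. The other small leucine-rich proteoglycans, largely genes with few counts, have one of −0.75.

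The tested gene whose profile over the 6 libraries was nearest to that of Cd44 was Bgn itself, with a root mean square difference of 0.07 on the log2 CPM scale, among 10877 genes with a mean of at least 5 CPM. The nearest to Bgn was C3ar1, the receptor of the complement fragment C3a, at 54.9, 49.7 and 55.6 CPM with LGK-974 and 21.1, 30.4 and 32.0 with DMSO. The nearest to Vcan was Spcs3, a subunit of the signal peptidase (0.05). Dcn was nearest to Serping1 (0.06), the C1 inhibitor, and Lum to Dpt (0.10), a small matrix protein that is also among the fibroblast markers. Ogn was nearest to Pttg1ip (0.03), Prelp to Sned1 (0.13), Has2 to Lrrc17 (0.10), Has1 to Plagl1 (0.15) and Fmod to Ptpn7 (0.14). The members' own profiles had a root mean square of 0.27 (Ogn) to 0.57 (Fmod). A search over so many genes with 6 libraries finds a close profile for most genes, and shared regulation was not tested.

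RefSeq promoter windows of GRCm38.p6 were at hand for 7 of the 10 members (not for Has2, Dcn and Lum). In the 250 bases before the start, 0 of 7 held the TCF/LEF motif of Wnt signaling (CTTTGAT or CTTTGTT, both strands) or the AP-1 motif (TGANTCA, both strands), against 8.06% and 6.75% of 32851 windows. This says only that these letters are not in these windows.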

How the data were processed

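RNA was isolated from the infarct area of 6 mice, ribosomal RNA was depleted, and libraries were made with a capture kit for coding sequence. The authors deposited, per transcript, an estimated count and a TPM value from Kallisto on Ensembl transcripts of GRCm38. The version of Kallisto, trimming and the Ensembl release are not given in the sources used here. TPM is scaled by the authors to transcript length and library sum and was used for levels between genes, ratios and shares.

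Of 118489 transcripts 98.6% were joined to 36047 genes through GENCODE vM21 and held 99.6 to 99.7% of the counts. The estimates, which need not be whole, were added up per gene and then rounded. A gene entered the test if 3 or more libraries held 10 or more of its counts. It was tested with edgeR 4.0.16 (R 4.3.3; TMM, quasi-likelihood, treatment as the only factor, Benjamini-Hochberg over all genes, threshold 0.05), and transcripts likewise. DESeq2 1.42.0 and voom of limma 3.58.1 were alternatives, as were other scalings, filters and each library left out. Permutation tests were exact and two-sided. Precision was limited by 3 mice a group, and for Has1, Has2 and Fmod also by depth. Intervals cover 95%. Reads divided between forms carry an uncertainty that was not modelled.

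The genes and lists were chosen with earlier results of these data known. Named genes were the 10 members, up to 3 genes of each list with the smallest p, list genes beside a member in the genome and the nearest profile of each member (root mean square difference of centred log2(CPM + 0.5)). Cell types were named by fixed marker lists. The scripts were tested on simulated data and run with matplotlib 3.10.9, pandas 2.3.3, NumPy 2.4.6 and SciPy 1.17.1 under Python 3.11.15.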

Additional observations from a re-analysis of the deposited data

How the results depend on the processing

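Of 150 refits of the 10 members, 140 kept the direction and the side of the threshold. The sign turned only for Has1, Dcn and Ogn: leaving out 1 library gave log2 fold changes from −0.18 to 0.44 for Has1, −0.23 to 0.41 for Dcn and −0.020 to 0.44 for Ogn, and protein-coding transcripts alone gave −0.065 for Dcn. Cd44, Vcan and Bgn stayed between 0.81 and 1.08, 0.66 and 0.98, and 0.74 and 1.11 with 1 library left out. The sign of 2 minor Vcan transcripts also turned with a library left out (Vcan-208 from −0.028 to 0.84, Vcan-204 from −0.73 to 0.44).

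Genes past the threshold numbered 0 by edgeR, 289 by DESeq2, 1206 with no filter on low counts and 0 to 2 with 1 library left out (2 without DMSO replicate 1). Members past it numbered 2 by DESeq2 (Cd44 and Bgn), 1 with no filter on low counts (Cd44) and 0 with 1 library left out. Transcripts past it numbered 502 by DESeq2, 1 with no filter and 0 with 1 library left out. The cause of these differences was not tested. At an unadjusted p under 0.05 by edgeR, the genes numbered 821 without LGK-974 replicate 3, 1526 without LGK-974 replicate 1 and 4628 without DMSO replicate 3, against 2699 with all libraries. Other scalings shifted the median of all genes from −0.13 to 0.08 (library totals), and the log2 fold changes of the 3 members kept their direction. With library totals, however, the groups of Vcan overlapped, as they did in TPM.

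Replicate numbers occur in both groups, but same-numbered libraries did not all deviate together (correlations 0.475, −0.0482 and 0.391), so they were not taken as pairs. With the replicate block, 0 genes, 0 members and 0 transcripts passed (3312 genes at an unadjusted p under 0.05). Leaving out 1 library gave differences from 2.24 to 4.24 points for the share of Vcan-203 in Vcan-203 and Vcan-206 together. For Vcan-203 in the TPM of the whole gene they ran from 1.22 to 6.57 points. For the share of the variable Cd44 forms they ran from −1.94 to 5.77 points, negative without DMSO replicate 2. The log2 difference of the Bgn to Dcn ratio, chosen after seeing the data, was 0.88 to 1.26 with 1 library left out. Depth limits Fmod, with 13 counts in DMSO replicate 2.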
